A study of Homo sapiens with 6 samples.

Results

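The genes described here encode the NF-kB transcription factor subunits, the proteins that hold them back or switch them on, the adaptors and receptors above them, and a few of their target genes. They were taken by gene name from the deposited count tables of 6 RNA-seq libraries of A549, an established human lung adenocarcinoma line. All 41 named genes were found among the 58735 genes in the tables. SOD2 stood there under 2 identifiers, and ENSG00000285441, which had 0 counts in all libraries, was set aside in favour of ENSG00000112096.

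The libraries formed 3 groups of 2. T133A cells were stably infected with a lentivirus (vector PLVX) that carried HOXB9 with the T133A change, KO cells were labelled as a HOXB9 knockout, and WT cells were stably infected with the same vector carrying HOXB9 without the change. HOXB9 is a HOX family transcription factor, and T133A puts alanine in place of a threonine. All cells were grown in RPMI 1640 with 10% serum, and no group had an empty vector or untreated cells. From the labels it is not known whether the endogenous HOXB9 gene was intact in T133A and WT cells, whether the KO cells were a single clone, or whether replicate libraries were grown apart. The p-values below therefore reflect only the variation among these samples, part or all of which may be technical. In bulk RNA, fewer cells that express a gene and less RNA of it per cell cannot be told apart.

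NF-kB factors are pairs of Rel-family proteins that sit in the cytoplasm bound to inhibitors of the IkB family until a receptor signal activates the IkB kinases, which mark the inhibitor for destruction. The canonical branch, used by the TNF, interleukin-1 and Toll-like receptors, releases RELA with NFKB1, while the noncanonical branch, used by CD40 and the lymphotoxin beta receptor, goes through the kinase NIK (MAP3K14) and frees RELB with the processed product of NFKB2. Many of the genes that NF-kB switches on encode its own inhibitors, so the pathway is known for feedback, and in airway and lung epithelium it is best known for inducing cytokines and adhesion molecules.

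Each library had 16299059 to 18745432 counts, and for a gene with 0 counts the upper limit of 3 counts corresponds to 0.161 to 0.182 CPM. CPM divides each count by its library's size after TMM adjustment and is the level used throughout. HOXB9 itself stood at 275 and 210 CPM in T133A cells, 14.5 and 15.4 CPM in KO cells, and 223 and 217 CPM in WT cells. It fell by 3.88 on the log2 scale in KO cells relative to WT cells (adjusted p = 3.27e-16) and did not pass the test between T133A and WT cells (log2 fold change 0.14, adjusted p = 0.495). Without T133A replicate 1 the T133A value was -0.047 (adjusted p = 0.882), and without T133A replicate 2 it was 0.33 and passed the test (adjusted p = 0.0202). Replicates of a group differed with the GC content of the genes. The rank correlation of replicate 1 minus replicate 2 with GC content, across 16332 genes that share these libraries, was 0.50 in T133A, -0.29 in KO and -0.18 in WT cells. For the log2 fold changes it was 0.17 for T133A against WT, 0.26 for KO against WT and -0.19 for T133A against KO. Mitochondrial genes took 8.91% and 8.51% of the counts in T133A cells, 5.60% and 4.45% in KO cells, and 7.87% and 7.84% in WT cells. The summed level of 7 epithelial markers was 7902 to 10110 CPM in all libraries, although its members differed. In KO cells relative to WT cells, EPCAM fell by 3.10, CLDN4 by 2.52 and CDH1 by 0.88 on the log2 scale, KRT7 rose by 1.02, and KRT8, KRT18 and KRT19 did not pass the test. In T133A cells relative to WT cells KRT7 rose by 0.58 and the other 6 did not pass the test. Among the 6 alveolar markers, ABCA3 made up nearly all of the sum and the surfactant genes were at or near 0. The 12 haematopoietic markers summed to 10.1 to 18.2 CPM, with CD2 and MS4A1 among those at 0 in all libraries. CD14, at 5.28 to 12.8 CPM, and ITGAM, at 1.17 to 5.58 CPM, made up most of that sum. Relative to WT cells, ITGAM rose by 1.40 on the log2 scale in T133A cells (adjusted p = 0.00468) and by 2.003 in KO cells (adjusted p = 1.1e-05). CD14 did not pass the test in any comparison. The 7 fibroblast markers summed to 40.4 and 42.3 CPM in T133A cells, 9.71 and 10.7 CPM in KO cells, and 41.9 and 42.4 CPM in WT cells. The part of these differences in the results below was not tested.

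NF-kB factors bind DNA at kappa B sites, and promoter windows of members that hold such letters are printed here for 8 genes that between them show the patterns of change described below. Windows of NFKB1 and LTB, and another window of NFKB2, hold such letters as well and are not printed. Nor are those of REL and CYLD, which hold such letters but passed the test in no comparison. Windows run from 250 bases before to 50 bases after an annotated start site (RefSeq, GRCh38.p14), 5′ to 3′ on the strand of the gene, with the matches to the broader kappa B pattern (GGG, any 3 bases, TTCC) or its reverse complement in capitals. Matches on opposite strands can overlap, and where they do the capitals cover both.
NFKBIA, chr14:35404700-35404999, minus strand: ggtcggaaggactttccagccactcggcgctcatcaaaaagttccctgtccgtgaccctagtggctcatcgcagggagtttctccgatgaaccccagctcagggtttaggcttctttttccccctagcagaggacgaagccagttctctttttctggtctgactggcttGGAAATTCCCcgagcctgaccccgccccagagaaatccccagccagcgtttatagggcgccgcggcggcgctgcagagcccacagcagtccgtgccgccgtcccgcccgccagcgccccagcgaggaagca
TNFAIP3, chr6:137867009-137867308, plus strand: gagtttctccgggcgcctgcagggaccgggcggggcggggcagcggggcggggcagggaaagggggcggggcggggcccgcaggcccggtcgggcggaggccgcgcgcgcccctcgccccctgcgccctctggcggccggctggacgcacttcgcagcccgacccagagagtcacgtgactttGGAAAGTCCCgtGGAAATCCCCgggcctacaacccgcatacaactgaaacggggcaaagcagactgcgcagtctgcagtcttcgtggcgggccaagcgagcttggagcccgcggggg
NFKB2, chr10:102395455-102395754, plus strand: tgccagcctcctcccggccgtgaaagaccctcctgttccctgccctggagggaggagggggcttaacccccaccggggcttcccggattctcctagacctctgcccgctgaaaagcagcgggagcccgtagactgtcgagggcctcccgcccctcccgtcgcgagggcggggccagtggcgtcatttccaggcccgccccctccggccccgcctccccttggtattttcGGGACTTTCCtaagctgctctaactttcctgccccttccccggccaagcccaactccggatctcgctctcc
TNIP1, chr5:151080985-151081284, minus strand: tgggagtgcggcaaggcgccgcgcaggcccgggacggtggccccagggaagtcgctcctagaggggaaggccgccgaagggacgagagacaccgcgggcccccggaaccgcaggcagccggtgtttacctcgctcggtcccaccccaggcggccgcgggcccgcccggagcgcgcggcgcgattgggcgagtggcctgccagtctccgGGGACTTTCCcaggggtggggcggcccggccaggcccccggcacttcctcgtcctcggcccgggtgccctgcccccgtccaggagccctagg
NFKBIZ, chr3:101827740-101828039, plus strand: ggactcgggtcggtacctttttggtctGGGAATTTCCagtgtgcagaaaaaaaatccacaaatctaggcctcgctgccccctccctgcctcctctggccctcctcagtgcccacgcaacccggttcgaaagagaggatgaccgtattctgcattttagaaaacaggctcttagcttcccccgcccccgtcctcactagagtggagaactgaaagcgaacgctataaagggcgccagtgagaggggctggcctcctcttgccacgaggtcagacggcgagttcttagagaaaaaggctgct
BIRC3, chr11:102317234-102317533, plus strand: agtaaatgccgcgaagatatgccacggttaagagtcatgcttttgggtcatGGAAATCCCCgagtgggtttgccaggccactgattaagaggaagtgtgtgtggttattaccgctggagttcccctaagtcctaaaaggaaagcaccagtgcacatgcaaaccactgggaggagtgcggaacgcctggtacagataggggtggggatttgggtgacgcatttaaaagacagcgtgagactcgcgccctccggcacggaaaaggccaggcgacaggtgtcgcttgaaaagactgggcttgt
TRAF3, chr14:102777199-102777498, plus strand: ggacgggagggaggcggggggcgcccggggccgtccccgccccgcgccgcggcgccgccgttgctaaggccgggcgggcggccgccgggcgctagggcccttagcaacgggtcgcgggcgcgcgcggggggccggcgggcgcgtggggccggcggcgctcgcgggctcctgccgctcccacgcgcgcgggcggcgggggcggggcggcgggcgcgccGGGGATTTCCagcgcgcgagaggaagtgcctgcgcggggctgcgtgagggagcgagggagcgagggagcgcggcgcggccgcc
NFKBIB, chr19:38899719-38900018, plus strand: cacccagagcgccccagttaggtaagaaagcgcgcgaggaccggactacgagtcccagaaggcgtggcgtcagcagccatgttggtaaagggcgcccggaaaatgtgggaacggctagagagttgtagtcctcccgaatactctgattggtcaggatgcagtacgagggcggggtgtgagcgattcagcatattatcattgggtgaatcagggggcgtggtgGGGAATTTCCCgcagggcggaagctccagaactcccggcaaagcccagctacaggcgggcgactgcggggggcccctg

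RefSeq windows matched 36 of the 41 genes, with 57 windows in all since some genes have several start sites. There was no window for RELB, NFKBIE, IKBKB, RIPK2 and CD40. A stricter pattern (GGGA, any 2 bases, TTCC), searched on both strands, stood in 11 of the 57 windows (19.3%), against 1.61% of 35116 RefSeq windows of the same length. Those windows belonged to 10 of the 36 genes, since LTB has 2 nearly identical windows that hold the same match. The broader pattern, which every match to the stricter one also fits, stood in 14 of the 57 windows (24.6%), against 6.52% of all windows. Its 12 genes were NFKB1, NFKB2, REL, NFKBIA, NFKBIB, NFKBIZ, TNFAIP3, TNIP1, CYLD, BIRC3, TRAF3 and LTB. TNFAIP3 held 2 matches in its window, whose first bases lay at -67 and -55 from the start site, and NFKBIA held 1 at -81. The matches are a description of letters in these windows and not of bound sites.

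**Figure D1:**
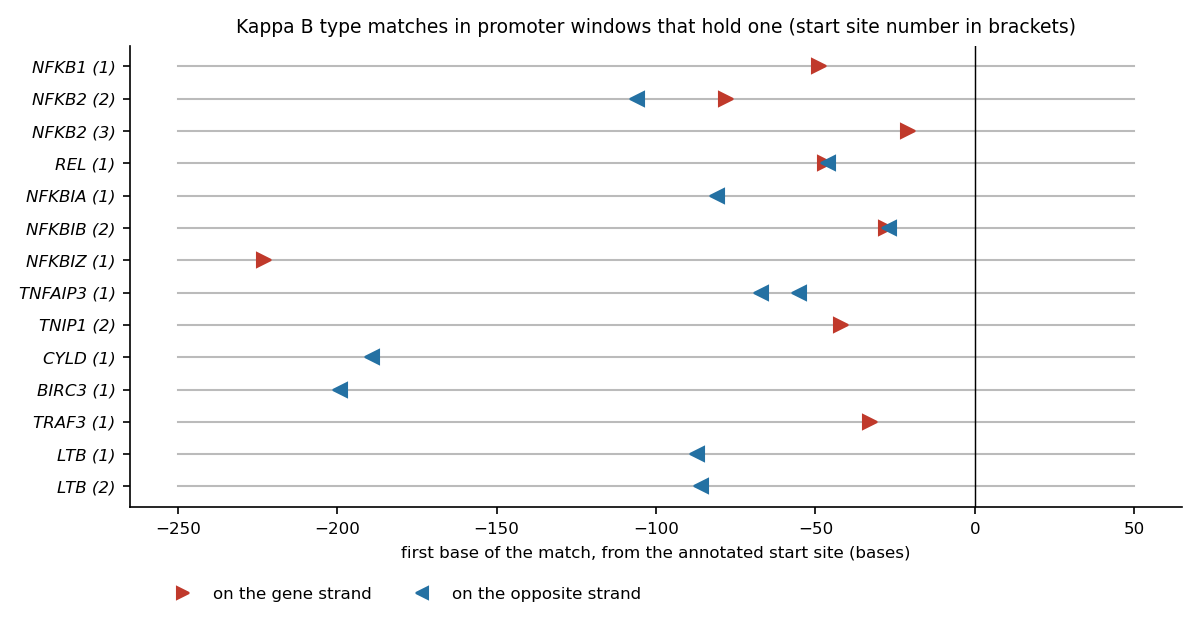
Position of each match to the broader kappa B pattern in the promoter windows that hold one, in bases from the annotated start site (horizontal axis), with 1 row per window and the start site number in brackets; arrowheads show the strand of the match relative to the gene. The matches of NFKBIZ, BIRC3 and CYLD begin at -223, -199 and -189, and the others begin between -106 and -21.

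Of the 41 genes, 40 passed the filter on low counts and were tested, TNF was not, and LTB passed through the T133A group alone, so counts are also given without it. The members were chosen with earlier results of these data known, so their shares beside those of all genes are a description only. In T133A cells, 21 of the 40 genes (20 of 39 without LTB) rose relative to WT cells and 0 fell, against 9.55% of all 16340 genes tested that changed in either direction (5.58% higher, 3.97% lower). The 1560 genes behind that share became 763 without WT replicate 1, 840 without WT replicate 2 and 2579 without T133A replicate 2, while 18 to 23 members were called with 1 library left out. The median log2 fold change of the 40 genes was 0.69 (0.64 without LTB), against 0.00 over all genes tested. Of the genes called, 15 had a log2 fold change of at least 1 (14 without LTB). In KO cells, 20 of the 40 genes rose and 5 fell relative to WT cells, a share of 62.5% against 46.6% of all genes (23.6% higher, 23% lower). Their median there was 0.48, or 0.56 without LTB, which had 0 counts in both groups. Between T133A and KO cells, 18 genes (17 without LTB) were higher in T133A cells and 8 were lower, a share of 65% against 39.9% of all genes (20.3% higher, 19.6% lower), with a median of 0.26 (0.20 without LTB). Both comparisons with WT rest on the same WT libraries. Over all genes, 58.5% of the calls between T133A and WT cells were higher in T133A cells, and 45.0% were when counts were scaled by library size only. No member was called lower in T133A cells than in WT cells under any of the scalings. Counts mapped to the 41 genes were 0.484% and 0.471% of the total in T133A cells, 0.335% and 0.346% in KO cells, and 0.264% and 0.264% in WT cells. The T133A libraries had the highest shares and the WT libraries the lowest, with no overlap. Abundant genes weigh most in such a sum. TNFAIP2 had 19877 and 17375 counts in T133A cells, 8274 and 9795 in KO cells, and 5556 and 5934 in WT cells. SOD2 had 9031 and 9585 counts in T133A cells, 1118 and 1022 in KO cells, and 1309 and 1239 in WT cells.

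**Figure D2:**
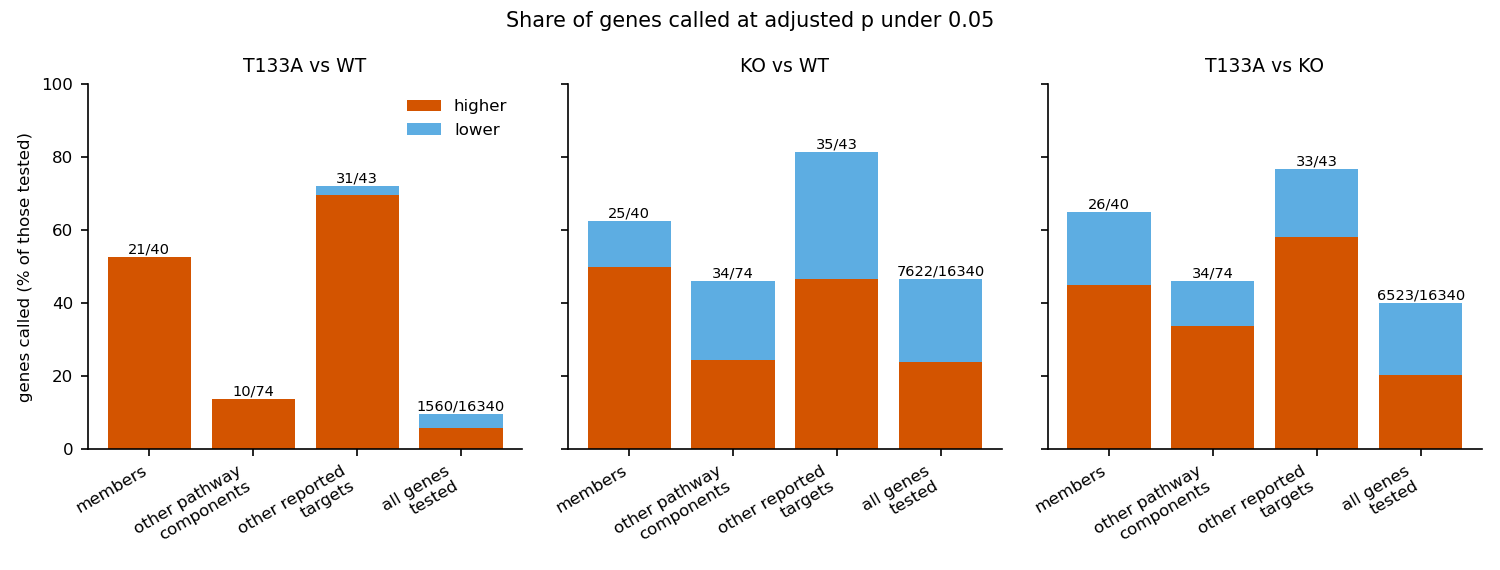
Share of the tested genes called at an adjusted p under 0.05, in percent, higher (orange) or lower (blue) in the group named first, for T133A against WT, KO against WT and T133A against KO; bars show the 41 members, 2 lists of other NF-kB pathway genes, and all genes tested, with called and tested numbers above. The members stood at 52.5%, 62.5% and 65%, and all genes tested at 9.55%, 46.6% and 39.9%.

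Adjusted p-values in the following are from edgeR's quasi-likelihood test with Benjamini-Hochberg adjustment over all genes tested, SE is the standard error of the log2 fold change, and values per library are in CPM with replicate 1 before replicate 2. CPM depends on gene length, so levels of different genes are compared only in CPM per kilobase. On that scale TNFAIP2 was the most abundant of the 41 genes in T133A cells at 215 CPM per kilobase, with 102 in KO cells and 65.2 in WT cells, and TNFRSF1A the most abundant in KO and WT cells at 132 and 113. The least abundant in T133A cells were TNF at 0.400, TNFRSF1B at 0.471 and LTB at 0.664 CPM per kilobase.

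**Figure D3:**
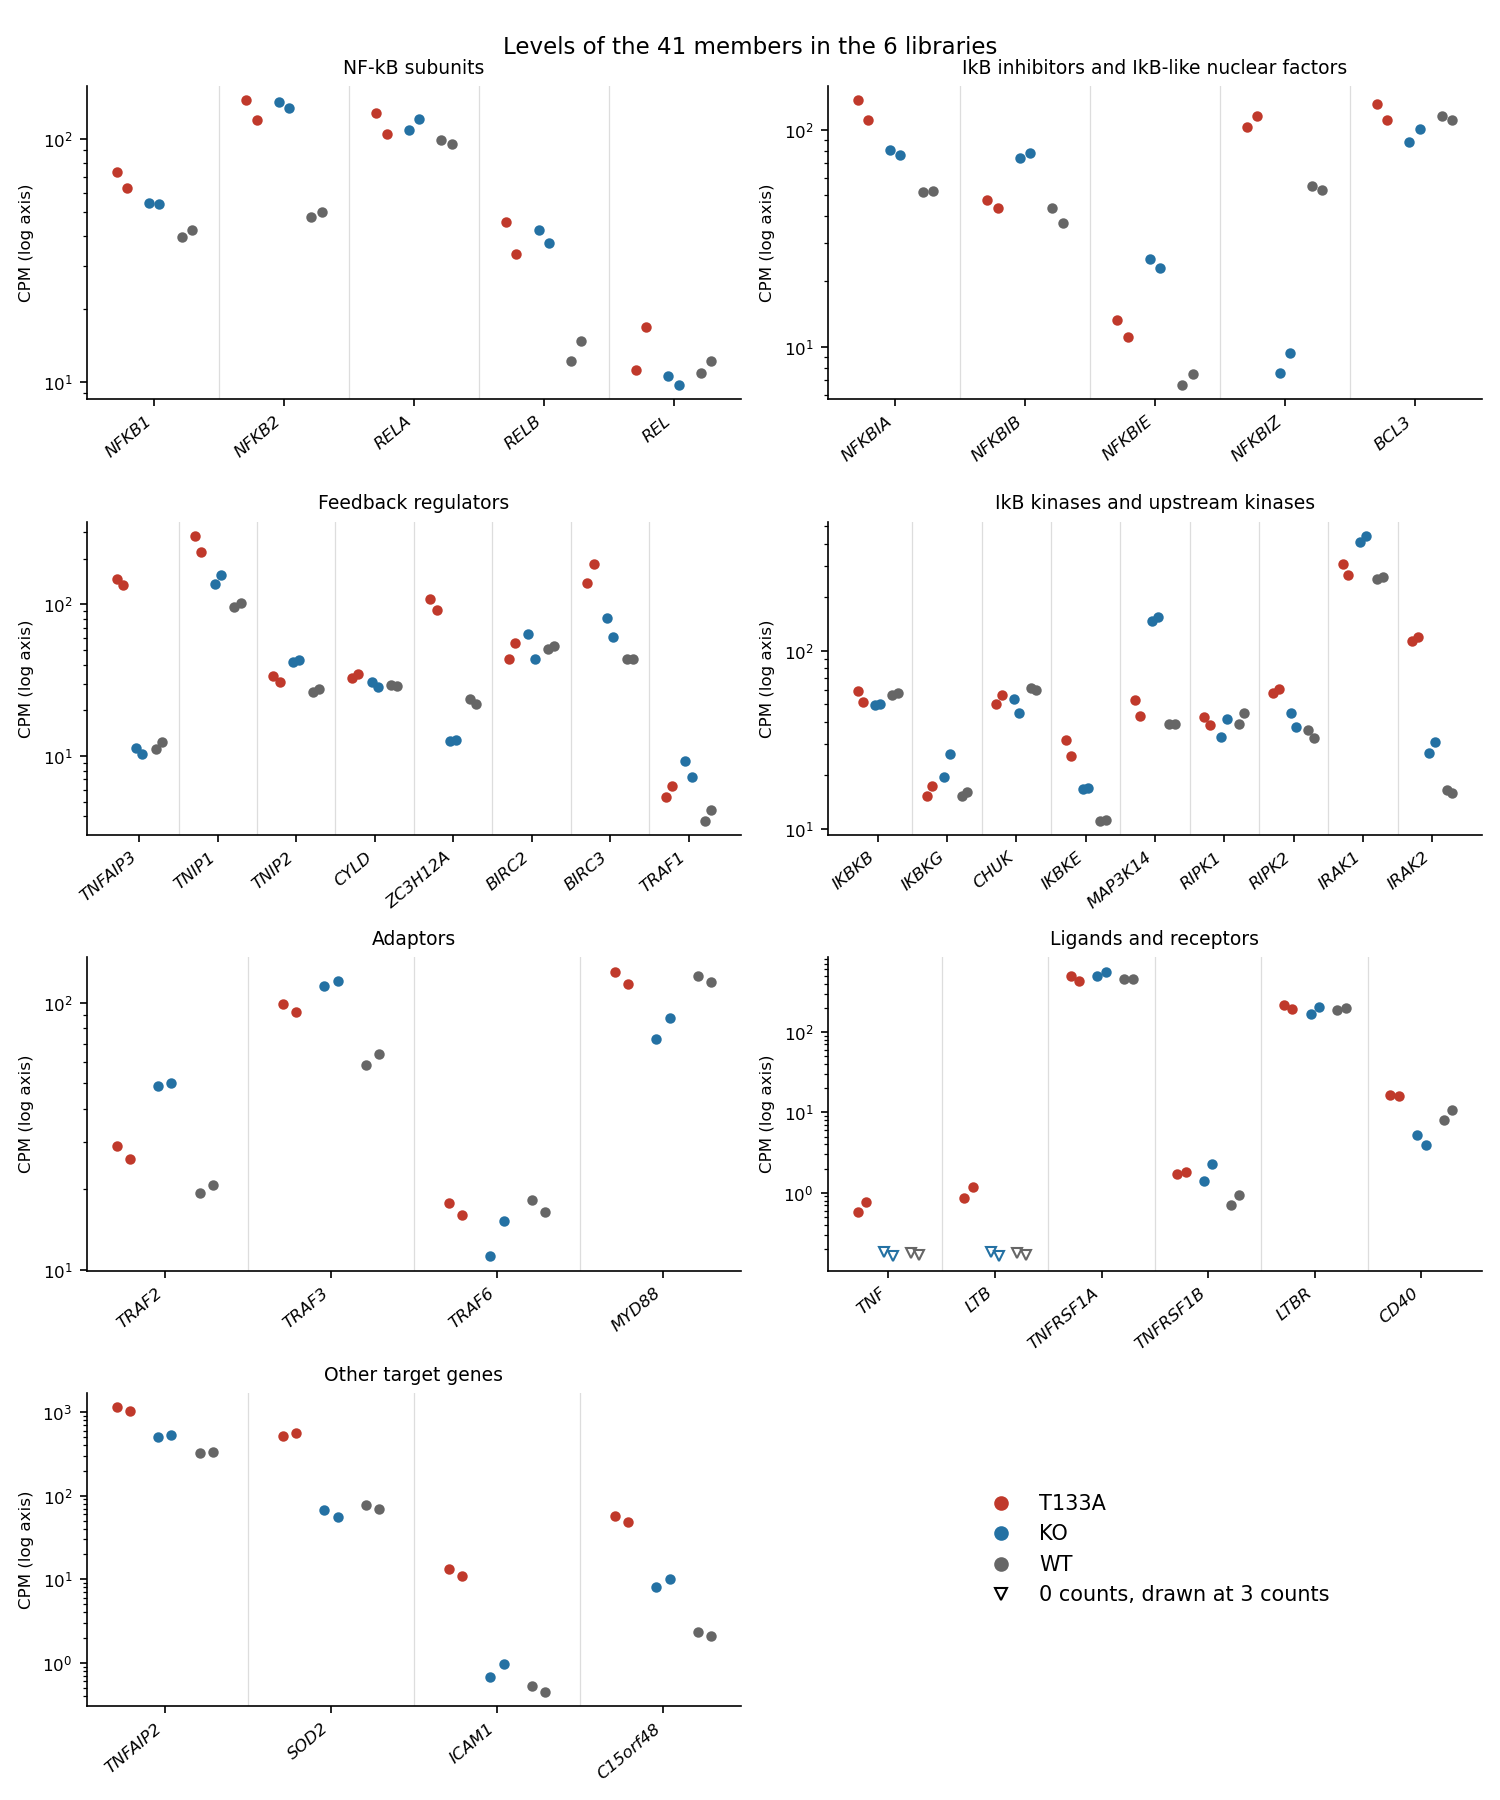
Level of each member in CPM (log axis) in every library, in panels by role, with T133A, KO and WT libraries in separate colours from left to right and open triangles for 0 counts drawn at the level of 3 counts. TNFAIP3 stood at 147 and 135 CPM in T133A cells and between 10.3 and 12.3 CPM in the 4 KO and WT libraries, while NFKBIZ stood lowest in KO cells.

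Among the ligands, TNF, the cytokine that signals through TNFR1 and TNFR2, had 10 and 13 counts in the T133A libraries and 0 counts in all KO and WT libraries. Against a floor of 3 counts per library it was at least 3.90-fold higher in T133A than in KO cells and at least 3.91-fold higher than in WT cells, with no test because it did not pass the filter. LTB, which encodes the membrane-anchored subunit of lymphotoxin, had 15 and 20 counts in the T133A libraries and 0 counts elsewhere. It was therefore at least 5.95-fold higher in T133A than in WT cells and at least 5.93-fold higher than in KO cells. No p-value is given for LTB, since a gene that passes the filter through 1 group alone has to differ from the others. Counts of both cytokine transcripts were seen in the 2 T133A libraries and in no other library, at no more than 1.18 CPM.

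Among the receptors, CD40, a TNF receptor family member that feeds the canonical and noncanonical branches, differed in all 3 comparisons. It stood at 16.4 and 16.1 CPM in T133A cells, 5.28 and 3.93 CPM in KO cells, and 8.01 and 10.7 CPM in WT cells. The 3 groups did not overlap, with T133A cells highest and KO cells lowest. CD40 rose by 0.79 on the log2 scale in T133A cells (SE 0.182, adjusted p = 0.00581) and fell by 1.03 in KO cells (SE 0.204, adjusted p = 0.000261), each relative to WT cells. T133A and KO cells differed by a log2 fold change of 1.82 (SE 0.197, adjusted p = 1.19e-07). Without WT replicate 1 the rise in T133A cells was 0.59 and no longer passed the test (adjusted p = 0.18). TNFRSF1B, which encodes TNFR2, was low in all groups, at 1.72 and 1.82 CPM in T133A cells, 1.40 and 2.26 CPM in KO cells, and 0.701 and 0.948 CPM in WT cells. Every T133A and KO library was above both WT libraries. Only the rise in KO cells passed the test (log2 fold change 1.15, SE 0.416, adjusted p = 0.0275), while T133A cells had a log2 fold change of 1.09 against WT cells (adjusted p = 0.108) and -0.05 against KO cells (adjusted p = 0.925). The rise in KO cells was lost with DESeq2 (adjusted p = 0.0908), without KO replicate 2 (0.74, adjusted p = 0.278) and without WT replicate 1 (0.96, adjusted p = 0.162). TNFRSF1A, which encodes the main TNF receptor TNFR1, and LTBR, the lymphotoxin beta receptor, did not pass the test in any comparison. TNFRSF1A lay between 433 and 565 CPM and LTBR between 167 and 218 CPM. LTBR shares bases with SCNN1A on the opposite strand, so its counts are uncertain without the strand setting of the counting.

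The adaptors carry receptor signals to the kinases, and TRAF2 and TRAF3 among them rose in KO cells. TRAF2, which recruits ubiquitin ligases to TNF receptors, stood at 29.03 and 25.9 CPM in T133A cells, 48.9 and 49.9 CPM in KO cells, and 19.3 and 20.7 CPM in WT cells. KO libraries were highest, T133A libraries lay between, and WT libraries were lowest, with no overlap. Its log2 fold change was 0.45 in T133A cells (SE 0.130, adjusted p = 0.0283), 1.30 in KO cells (SE 0.128, adjusted p = 2.27e-08), each relative to WT cells, and -0.85 between T133A and KO cells (SE 0.125, adjusted p = 1.04e-05). The rise in T133A cells missed the threshold without T133A replicate 1 (0.38, adjusted p = 0.114), without WT replicate 1 (0.40, adjusted p = 0.336), without WT replicate 2 (0.49, adjusted p = 0.166) and with library-size scaling only (0.38, adjusted p = 0.0627). TRAF3, which with TRAF2 keeps NIK low, stood at 98.6 and 92.5 CPM in T133A cells, 115 and 120 CPM in KO cells, and 58.5 and 63.9 CPM in WT cells. The order of the groups was that of TRAF2, again without overlap. TRAF3 rose by 0.64 in T133A cells (SE 0.106, adjusted p = 0.00023) and by 0.94 in KO cells (SE 0.106, adjusted p = 1.93e-07), each relative to WT cells. The log2 fold change of TRAF3 between T133A and KO cells was -0.30 (SE 0.104, adjusted p = 0.0262), a call that was lost without T133A replicate 2 (-0.26), KO replicate 2 (-0.26), WT replicate 1 (-0.31) or WT replicate 2 (-0.31), with adjusted p from 0.0639 to 0.105.

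MYD88, the adaptor of the interleukin-1 and Toll-like receptors, did not share this order. Its levels were 131 and 117 CPM in T133A cells, 73.1 and 87.8 CPM in KO cells, and 125 and 119 CPM in WT cells. The KO libraries were lower than all others, while T133A and WT libraries overlapped. MYD88 fell by 0.60 on the log2 scale in KO cells relative to WT cells (SE 0.111, adjusted p = 0.000135). It was higher in T133A than in KO cells by a log2 fold change of 0.62 (SE 0.111, adjusted p = 0.000112), with 0.02 between T133A and WT cells (adjusted p = 0.938). TRAF6, the ubiquitin ligase below MYD88, lay between 11.2 and 18.2 CPM in the 6 libraries and did not pass the test in any comparison.

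Among the 9 kinases, IRAK2, IKBKE and RIPK2 were highest in T133A cells, and MAP3K14 and IRAK1 were highest in KO cells. IRAK2, a kinase of the MYD88 complex, stood at 114 and 119 CPM in T133A cells, 26.5 and 30.7 CPM in KO cells, and 16.5 and 15.9 CPM in WT cells. T133A libraries were far above the rest and KO libraries lay above WT libraries. IRAK2 was 7.18-fold higher in T133A than in WT cells (log2 fold change 2.84, SE 0.124, adjusted p = 1.04e-13) and 1.77-fold higher in KO than in WT cells (log2 fold change 0.82, SE 0.126, adjusted p = 1.47e-05). The log2 fold change between T133A and KO cells was 2.02 (SE 0.118, adjusted p = 3.09e-12). IKBKE, an IkB kinase relative that also acts in interferon induction, had the same order of groups. It stood at 31.4 and 25.5 CPM in T133A cells, 16.7 and 17.0 CPM in KO cells, and 11.1 and 11.2 CPM in WT cells, without overlap. Its log2 fold change was 1.35 in T133A cells (SE 0.149, adjusted p = 1.08e-06) and 0.59 in KO cells (SE 0.153, adjusted p = 0.00293), each relative to WT cells, and 0.76 between T133A and KO cells (SE 0.144, adjusted p = 0.000212). RIPK2, the kinase below the NOD receptors, stood at 57.6 and 61.1 CPM in T133A cells, 44.6 and 37.1 CPM in KO cells, and 35.8 and 32.3 CPM in WT cells. T133A libraries were highest, and the groups did not overlap. It rose by 0.80 in T133A cells relative to WT cells (SE 0.124, adjusted p = 9.81e-05), was higher in T133A than in KO cells by 0.54 (SE 0.122, adjusted p = 0.00119), and had a log2 fold change of 0.26 in KO cells (adjusted p = 0.0898).

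MAP3K14, which encodes NIK, the kinase that starts the noncanonical branch, had the largest rise of the kinases in KO cells. It stood at 53.0 and 43.3 CPM in T133A cells, 147 and 154 CPM in KO cells, and 38.8 and 38.9 CPM in WT cells. Both KO libraries were far above the other 4. MAP3K14 was 3.88-fold higher in KO than in WT cells (log2 fold change 1.95, SE 0.116, adjusted p = 5.07e-12) and lower in T133A than in KO cells by a log2 fold change of -1.64 (SE 0.115, adjusted p = 7.49e-11). The difference between T133A and WT cells did not pass the test (log2 fold change 0.31, adjusted p = 0.104). An antisense gene, MAP3K14-AS1, overlaps it with 9.84% as many counts, and reads of the 2 cannot be told apart without strand. IRAK1, the partner of IRAK2 at MYD88, stood at 308 and 267 CPM in T133A cells, 411 and 442 CPM in KO cells, and 254 and 260 CPM in WT cells. KO libraries were again the highest, and IRAK1 rose there by 0.73 relative to WT cells (SE 0.103, adjusted p = 4.69e-06), with a log2 fold change of -0.57 between T133A and KO cells (SE 0.103, adjusted p = 0.00012). It did not pass the test between T133A and WT cells (log2 fold change 0.16, adjusted p = 0.365).

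The genes of the IkB kinase complex itself had small differences. IKBKB, a catalytic subunit, lay between 49.4 and 59.7 CPM and RIPK1, the kinase at TNFR1, between 32.8 and 44.8 CPM, and neither passed the test in any comparison. CHUK, the other catalytic subunit, stood at 50.3 and 56.6 CPM in T133A cells, 53.7 and 45.0 CPM in KO cells, and 62.1 and 60.2 CPM in WT cells. It fell by 0.31 on the log2 scale in KO cells relative to WT cells (adjusted p = 0.0361), but its log2 fold change was 0.093 (adjusted p = 0.358) once GC content and gene length were corrected for. The call was also lost without KO replicate 2 (-0.20, adjusted p = 0.262), WT replicate 1 (-0.28, adjusted p = 0.218) or WT replicate 2 (-0.34, adjusted p = 0.129). IKBKG, the regulatory subunit NEMO, stood at 15.2 and 17.5 CPM in T133A cells, 19.6 and 26.4 CPM in KO cells, and 15.4 and 16.0 CPM in WT cells. KO libraries were highest, and T133A and WT libraries overlapped. It rose by 0.56 in KO cells relative to WT cells (adjusted p = 0.00583), and without KO replicate 2 by 0.31 (adjusted p = 0.189). For IKBKG the log2 fold change between T133A and KO cells was -0.50 (adjusted p = 0.0143), and it was lost without T133A replicate 1 (-0.38, adjusted p = 0.074) or KO replicate 2 (-0.25, adjusted p = 0.297). The counts of CHUK, which overlaps ERLIN1, and of IKBKG are uncertain without the strand setting of the counting.

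Of the Rel subunits, NFKB2 and RELB, the pair of the noncanonical branch, rose most and to like levels in T133A and KO cells. NFKB2 stood at 145 and 120 CPM in T133A cells, 142 and 134 CPM in KO cells, and 47.9 and 49.9 CPM in WT cells. T133A and KO libraries overlapped, and all 4 were above both WT libraries. NFKB2 was 2.71-fold higher in T133A than in WT cells (log2 fold change 1.44, SE 0.113, adjusted p = 3.77e-09) and 2.82-fold higher in KO than in WT cells (log2 fold change 1.498, SE 0.113, adjusted p = 2.76e-10). RELB stood at 45.5 and 33.7 CPM in T133A cells, 42.2 and 37.2 CPM in KO cells, and 12.2 and 14.8 CPM in WT cells, with the same overlap. It rose by 1.55 in T133A cells (SE 0.156, adjusted p = 2.32e-07) and by 1.55 in KO cells (SE 0.156, adjusted p = 2.98e-08), each relative to WT cells. Between T133A and KO cells the log2 fold change was -0.06 for NFKB2 (95% interval -0.27 to 0.15) and -0.00 for RELB (95% interval -0.29 to 0.28), and neither passed the test.

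NFKB1, which encodes the p50 precursor, had smaller differences. It stood at 73.0 and 63.0 CPM in T133A cells, 54.4 and 53.8 CPM in KO cells, and 39.4 and 42.3 CPM in WT cells. The groups did not overlap, with T133A cells highest and WT cells lowest. NFKB1 rose by 0.73 in T133A cells (SE 0.116, adjusted p = 0.000135) and by 0.40 in KO cells (SE 0.117, adjusted p = 0.00682), each relative to WT cells. The rise in KO cells was 0.36 without WT replicate 1 (adjusted p = 0.116). Between T133A and KO cells its log2 fold change was 0.33 (SE 0.115, adjusted p = 0.0255). That call held without T133A replicate 2 and was lost when any of the other 5 libraries was left out (0.24 to 0.33, adjusted p from 0.0686 to 0.127). RELA, the main transactivating subunit of the canonical branch, stood at 128 and 105 CPM in T133A cells, 110 and 121 CPM in KO cells, and 99.0 and 95.5 CPM in WT cells. Its log2 fold changes of 0.26 in T133A and 0.25 in KO cells relative to WT cells did not pass the test (adjusted p = 0.161 and 0.0763). REL lay between 9.69 and 16.8 CPM and did not pass the test either. Per kilobase, NFKB2 and RELA were the most abundant subunits in T133A cells, at 29.5 and 21.3 CPM per kilobase, and REL the least, at 1.06. In WT cells the order began with RELA at 17.8, followed by NFKB2 at 10.9, NFKB1 at 6.53 and RELB at 4.45 CPM per kilobase.

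The IkB family, which holds the subunits in the cytoplasm or acts with them in the nucleus, split between the groups. NFKBIA, the classical inhibitor and feedback target, whose promoter window is printed above, stood at 137 and 111 CPM in T133A cells, 80.4 and 76.4 CPM in KO cells, and 51.6 and 52.0 CPM in WT cells. The groups did not overlap, with T133A cells highest and WT cells lowest. NFKBIA was 2.39-fold higher in T133A than in WT cells (log2 fold change 1.26, SE 0.115, adjusted p = 4.65e-08) and 1.51-fold higher in KO than in WT cells (log2 fold change 0.60, SE 0.115, adjusted p = 0.00019). It was higher in T133A than in KO cells by a log2 fold change of 0.66 (SE 0.112, adjusted p = 5.96e-05). NFKBIE, which encodes IkB epsilon, stood at 13.3 and 11.1 CPM in T133A cells, 25.5 and 23.0 CPM in KO cells, and 6.66 and 7.53 CPM in WT cells. Here KO cells were highest, and T133A cells lay between KO and WT cells. Its log2 fold change was 0.78 in T133A cells (SE 0.170, adjusted p = 0.0038) and 1.77 in KO cells (SE 0.163, adjusted p = 8.03e-09), each relative to WT cells, and -0.99 between T133A and KO cells (SE 0.155, adjusted p = 2.03e-05). Without WT replicate 1 the rise in T133A cells was 0.69 (adjusted p = 0.0819).

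NFKBIB, which encodes IkB beta, stood at 47.3 and 43.4 CPM in T133A cells, 73.9 and 78.5 CPM in KO cells, and 43.7 and 37.3 CPM in WT cells. Only the KO libraries stood apart. NFKBIB rose by 0.91 in KO cells relative to WT cells (SE 0.118, adjusted p = 1.41e-06) and had a log2 fold change of -0.75 between T133A and KO cells (SE 0.117, adjusted p = 2.11e-05), while that between T133A and WT cells was 0.16 (adjusted p = 0.45). SIRT2 on the opposite strand shares bases with it, with 81.5% as many counts, so its counts are uncertain. NFKBIZ encodes a nuclear IkB protein that helps NF-kB induce a subset of inflammatory genes, and it differed in opposite directions in the 2 comparisons with WT. It stood at 103 and 116 CPM in T133A cells, 7.59 and 9.31 CPM in KO cells, and 54.9 and 52.8 CPM in WT cells. T133A libraries were highest and KO libraries lowest, with no overlap. NFKBIZ was 2.03-fold higher in T133A than in WT cells (log2 fold change 1.02, SE 0.116, adjusted p = 1.59e-06) and fell by 2.67 on the log2 scale in KO cells relative to WT cells, to 6.35-fold lower (SE 0.137, adjusted p = 3.62e-13). Between T133A and KO cells it differed 12.9-fold (log2 fold change 3.69, SE 0.137, adjusted p = 9.28e-16). BCL3, another nuclear IkB protein, lay between 87.7 and 132 CPM and passed the test only between T133A and KO cells (log2 fold change 0.36, SE 0.112, adjusted p = 0.0127). It lost that call without T133A replicate 1 (0.25, adjusted p = 0.0845) or KO replicate 1 (0.23, adjusted p = 0.146).

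Of the 8 feedback regulators, 4 rose in T133A cells relative to WT cells, where 5.58% of all genes tested rose. TNFAIP3 encodes A20, an enzyme that edits ubiquitin chains and shuts the pathway off, and 2 matches stand in its window above. It stood at 147 and 135 CPM in T133A cells, 11.4 and 10.3 CPM in KO cells, and 11.2 and 12.3 CPM in WT cells. The T133A libraries were far above the other 4, and KO and WT libraries overlapped. TNFAIP3 was 13.0-fold higher in T133A than in KO cells (log2 fold change 3.70, SE 0.130, adjusted p = 2.95e-16). It was also higher than in WT cells, by a log2 fold change of 3.58 (SE 0.129, adjusted p = 3.76e-15). KO and WT cells differed by a log2 fold change of -0.12 (adjusted p = 0.515). TNIP1, which encodes the A20 partner ABIN1, rose in both groups. It stood at 283 and 220 CPM in T133A cells, 136 and 156 CPM in KO cells, and 96.0 and 102 CPM in WT cells, without overlap. Its log2 fold change was 1.35 in T133A cells (SE 0.119, adjusted p = 2.8e-08) and 0.56 in KO cells (SE 0.118, adjusted p = 0.000493), each relative to WT cells, and 0.79 between T133A and KO cells (SE 0.117, adjusted p = 1.1e-05). TNIP2, which encodes ABIN2, stood at 33.9 and 30.9 CPM in T133A cells, 41.5 and 42.7 CPM in KO cells, and 26.3 and 27.6 CPM in WT cells. KO libraries were highest. TNIP2 rose by 0.64 in KO cells relative to WT cells (SE 0.124, adjusted p = 0.000197), and its log2 fold change in T133A cells was 0.26 (adjusted p = 0.209). It was lower in T133A than in KO cells (log2 fold change -0.38, SE 0.122, adjusted p = 0.0169), but not without T133A replicate 2 (-0.32, adjusted p = 0.0728) or KO replicate 2 (-0.35, adjusted p = 0.0713).

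ZC3H12A encodes Regnase-1, an RNase that degrades inflammatory messenger RNAs, and like NFKBIZ it differed in opposite directions. It stood at 109 and 92.1 CPM in T133A cells, 12.6 and 12.7 CPM in KO cells, and 23.8 and 22.0 CPM in WT cells. T133A cells were highest and KO cells lowest, with no overlap. ZC3H12A was 4.39-fold higher in T133A than in WT cells (log2 fold change 2.13, SE 0.125, adjusted p = 2.48e-11) and fell by 0.85 on the log2 scale in KO cells relative to WT cells (SE 0.136, adjusted p = 2.28e-05). Between T133A and KO cells it differed 7.93-fold (log2 fold change 2.99, SE 0.133, adjusted p = 2.49e-14). BIRC3, which encodes the ubiquitin ligase cIAP2, stood at 138 and 186 CPM in T133A cells, 81.9 and 61.2 CPM in KO cells, and 43.4 and 43.7 CPM in WT cells. Here too T133A cells were highest, but WT cells were lowest. BIRC3 was 3.72-fold higher in T133A than in WT cells (log2 fold change 1.90, SE 0.141, adjusted p = 1.42e-09), 1.64-fold higher in KO than in WT cells (log2 fold change 0.72, SE 0.140, adjusted p = 0.000241) and 2.27-fold higher in T133A than in KO cells (log2 fold change 1.18, SE 0.137, adjusted p = 3.48e-07).

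TRAF1, a TRAF protein induced by NF-kB, stood at 5.35 and 6.29 CPM in T133A cells, 9.23 and 7.21 CPM in KO cells, and 3.74 and 4.41 CPM in WT cells. KO libraries were highest and WT libraries lowest. TRAF1 rose by 1.01 in KO cells relative to WT cells (SE 0.218, adjusted p = 0.000626), while its log2 fold change in T133A cells was 0.51 against WT cells (adjusted p = 0.17) and -0.49 against KO cells (adjusted p = 0.0646). Neither BIRC2, which encodes cIAP1 and neighbours BIRC3 on chromosome 11, nor CYLD, a deubiquitinase that dampens the pathway, passed the test in any comparison. BIRC2 lay between 43.3 and 64.2 CPM and CYLD between 28.4 and 35.0 CPM, and the groups overlapped for BIRC2.

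All 4 remaining target genes rose in T133A cells relative to WT and to KO cells, and SOD2 and ICAM1 did not pass the test between KO and WT cells. Of all genes tested, 5.58% were higher in T133A than in WT cells and 20.3% were higher than in KO cells. ICAM1, a leukocyte adhesion molecule, stood at 13.1 and 11.1 CPM in T133A cells, 0.668 and 0.969 CPM in KO cells, and 0.526 and 0.446 CPM in WT cells. The T133A libraries were far above the other 4. ICAM1 was 14.5-fold higher in T133A than in KO cells (log2 fold change 3.86, SE 0.277, adjusted p = 1.27e-10) and 24.6-fold higher than in WT cells (log2 fold change 4.62, SE 0.304, adjusted p = 1.62e-10), with a log2 fold change of 0.76 in KO cells relative to WT cells (adjusted p = 0.164). SOD2, the mitochondrial superoxide dismutase, stood at 519 and 564 CPM in T133A cells, 67.9 and 55.0 CPM in KO cells, and 76.5 and 69.1 CPM in WT cells. Both KO libraries were below both WT libraries, yet only the T133A libraries stood apart by the test. SOD2 was 7.44-fold higher in T133A than in WT cells (log2 fold change 2.89, SE 0.118, adjusted p = 3.19e-14) and 8.82-fold higher than in KO cells (log2 fold change 3.14, SE 0.119, adjusted p = 1.28e-15), and its log2 fold change in KO cells was -0.25 (adjusted p = 0.0833). WTAP overlaps SOD2 on the opposite strand with 26.6% as many counts.

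C15orf48 and TNFAIP2 rose in T133A and in KO cells. C15orf48, which encodes an inflammation-induced mitochondrial protein related to a respiratory chain subunit, stood at 57.2 and 47.9 CPM in T133A cells, 8.13 and 10.0 CPM in KO cells, and 2.34 and 2.06 CPM in WT cells. The groups did not overlap, and C15orf48 had the largest rise of the 40 genes in KO cells, 4.13-fold relative to WT cells (log2 fold change 2.05, SE 0.206, adjusted p = 3.35e-08). It was 23.8-fold higher in T133A than in WT cells (log2 fold change 4.58, SE 0.187, adjusted p = 3.19e-14). Against KO cells it was higher by a log2 fold change of 2.53 (SE 0.155, adjusted p = 7.46e-12). TNFAIP2, a TNF-induced protein linked to membrane protrusions, stood at 1143 and 1022 CPM in T133A cells, 502 and 527 CPM in KO cells, and 325 and 331 CPM in WT cells. Its groups did not overlap either. TNFAIP2 was 3.30-fold higher in T133A than in WT cells (log2 fold change 1.72, SE 0.105, adjusted p = 4.24e-11), 1.57-fold higher in KO than in WT cells (log2 fold change 0.65, SE 0.103, adjusted p = 2.04e-05) and 2.10-fold higher in T133A than in KO cells (log2 fold change 1.07, SE 0.103, adjusted p = 1.8e-08).

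**Figure D4:**
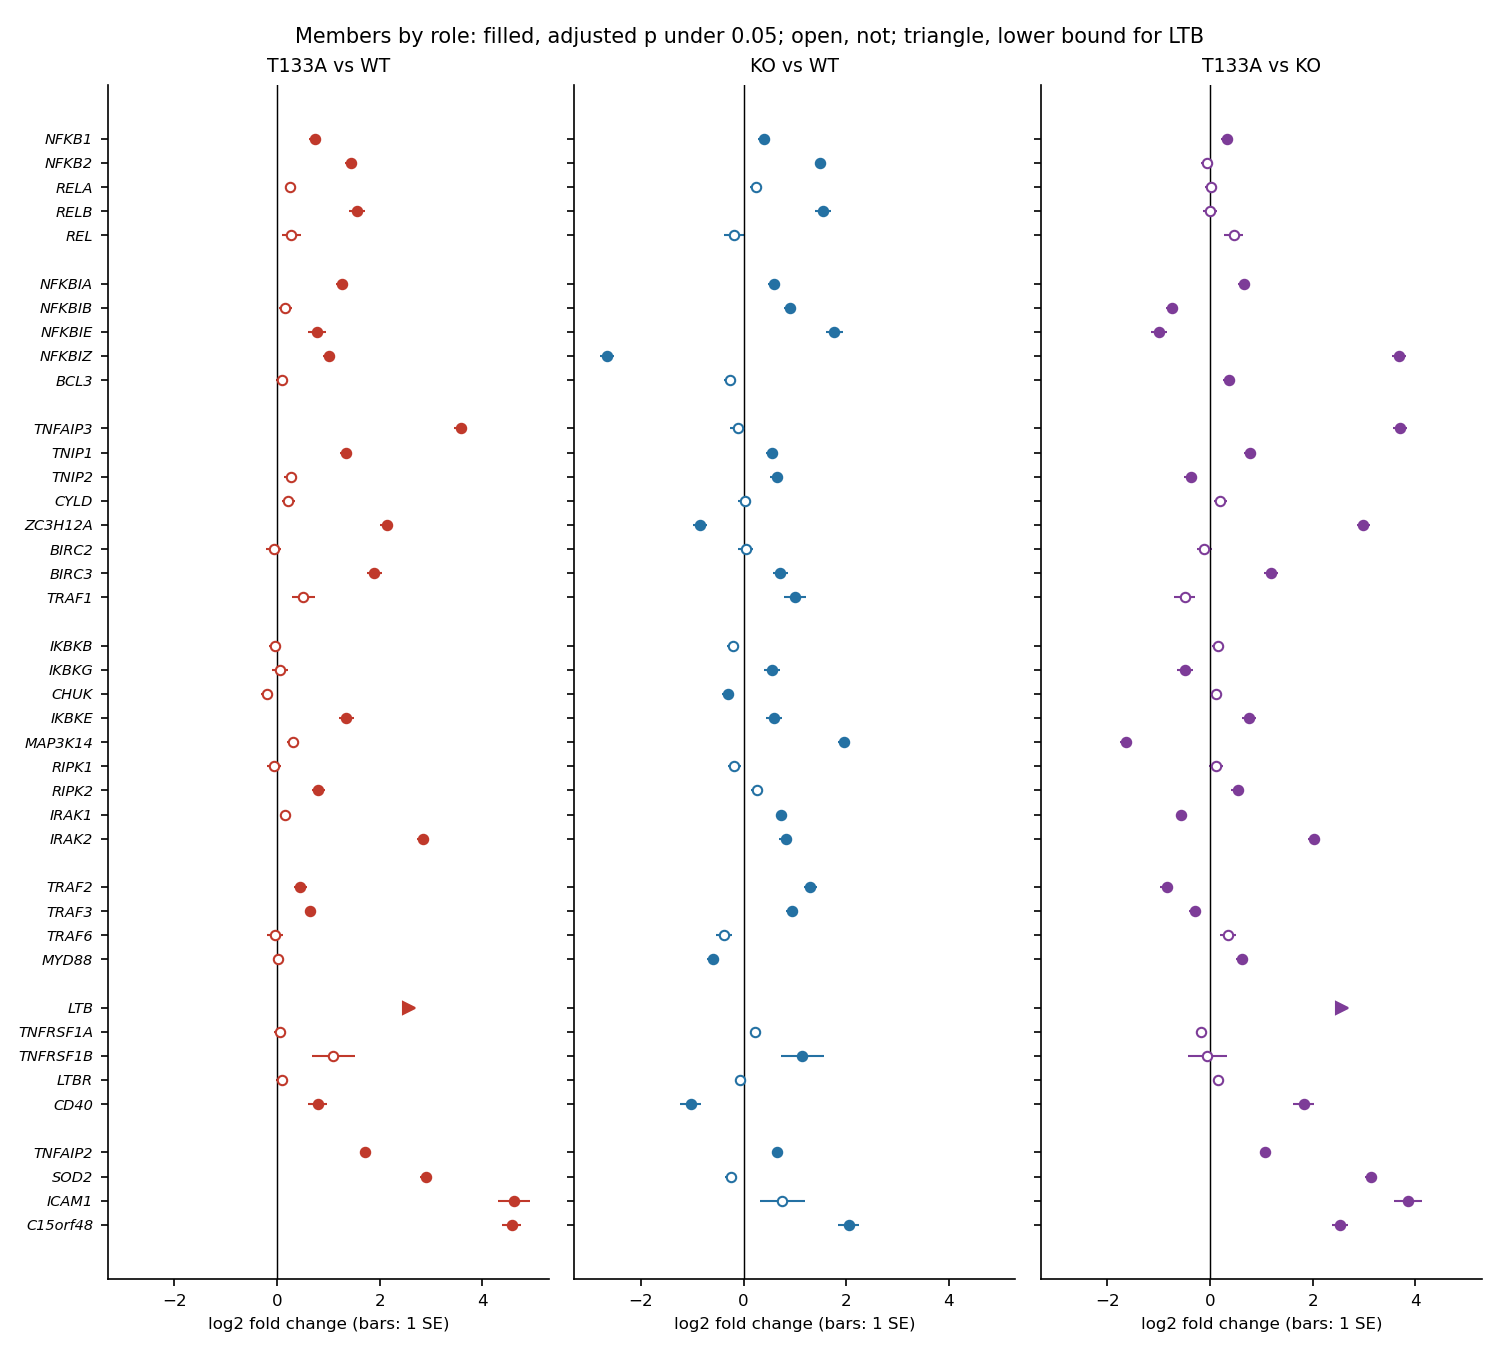
Log2 fold change of each tested member for T133A against WT, KO against WT and T133A against KO, grouped by role, with bars of 1 SE; filled points passed the test (adjusted p under 0.05), open points did not, and the triangle for LTB is its lower bound. NFKBIZ, ZC3H12A and CD40 lie to the right of 0 for T133A against WT and to the left for KO against WT, and MAP3K14, NFKBIE and TRAF2 lie to the left for T133A against KO.

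By role, the calls for T133A against WT were 3 of 5 subunits, 3 of 5 IkB proteins, 4 of 8 feedback regulators, 3 of 9 kinases, 2 of 4 adaptors, 2 of 5 ligands and receptors (1 of 4 without LTB) and 4 of 4 other targets, all higher, against 9.55% of all genes tested. For KO against WT, 5 genes fell, 1 each among the IkB proteins (NFKBIZ), feedback regulators (ZC3H12A), kinases (CHUK), adaptors (MYD88) and receptors (CD40), where 46.6% of all genes tested changed and 23% fell. Those lower in T133A than in KO cells were 8 of 40, a share near the 19.6% of all genes tested. These 8 were NFKBIB, NFKBIE, TNIP2, IKBKG, MAP3K14, IRAK1, TRAF2 and TRAF3. For T133A against WT, 9 of the 12 genes with a promoter match to the broader pattern were called (8 of 11 without LTB), all higher, with a median log2 fold change of 1.14 (1.02 without LTB). Of the 23 tested genes with a window and no match, 8 were called, with a median of 0.26. For KO against WT, 7 were higher and 1 lower of 12 genes with a match (66.7%) and 11 higher and 3 lower of 23 without (60.9%), against 46.6% of all genes tested. The medians there were 0.48 with a match (0.56 without LTB) and 0.56 without. For T133A against KO, 7 were higher and 2 lower of 12 with a match (6 and 2 of 11 without LTB) and 9 higher and 5 lower of 23 without, against 39.9% of all genes tested, with medians of 0.56 (0.46 without LTB) and 0.12.

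A list of 78 other pathway components (further receptors, ligands, adaptors and ubiquitin enzymes) was likewise chosen with earlier results known, and 74 were tested. In T133A cells 10 were higher and 0 lower than in WT cells. That share was 13.5%, against 9.55% of all genes tested (5.58% higher, 3.97% lower), and the median log2 fold change was 0.13. Those with the smallest adjusted p were TNFRSF12A, the receptor of TWEAK, TNFRSF10B, a TRAIL receptor, and CFLAR, which blocks caspase-8. TNFRSF12A averaged 89.8 ± 11.3 CPM in T133A cells, 136 ± 11.8 CPM in KO cells and 48.5 ± 4.16 CPM in WT cells (SD, 2 libraries each). IL1A, which encodes interleukin-1 alpha, is also counted among the 10. It was barely detected, at 1.37 ± 0.392 CPM in T133A cells, 0.253 ± 0.0996 CPM in KO cells and 0.173 ± 0.0865 CPM in WT cells. Like LTB, IL1A passed the filter on low counts through T133A cells alone and had to differ. Its call therefore carries no weight in the share of this list. For KO against WT the list had 18 higher and 16 lower (45.9%), near the 46.6% of all genes tested, with a median of -0.04. Among those that fell, the TNF family ligands TNFSF15 and TNFSF10 (TRAIL) had the smallest adjusted p. TNFSF15 averaged 58.1 ± 9.27 CPM in T133A cells, 0.546 ± 0.0867 CPM in KO cells and 53.1 ± 6.59 CPM in WT cells, and fell by 6.60 on the log2 scale in KO cells relative to WT cells (adjusted p = 3.27e-16). TNFSF10 averaged 32.8 ± 1.30 CPM in T133A cells, 1.40 ± 0.160 CPM in KO cells and 36.8 ± 1.48 CPM in WT cells, and fell by 4.71 (adjusted p = 3.21e-15). PELI1, a ubiquitin ligase of the IRAK complexes, fell by 2.13 (adjusted p = 5.11e-10), and the interleukin-1 receptor IL1R1 fell by 1.15 (adjusted p = 5.87e-08). Between T133A and KO cells, 25 of the 74 were higher in T133A cells and 9 lower, with a median of 0.16. The 25 include IRAK3, which also passed the filter through T133A cells alone. That share was 45.9%, against 39.9% of all genes tested, which were split almost evenly (20.3% higher, 19.6% lower).

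Of 46 other genes reported as NF-kB targets, 43 were tested. They too were chosen with earlier results of these data known, so their shares beside those of all genes are a description only. For T133A against WT, 30 were higher and 1, BCL6, was lower (72.1%, against 9.55% of all genes tested), with a median log2 fold change of 1.04. For KO against WT, 20 were higher and 15 lower (81.4%, against 46.6% of all genes tested), with a median of 0.35. For T133A against KO, 25 were higher and 8 lower (76.7%, against 39.9% of all genes tested), with a median of 0.76. The 8 include PTX3, which passed the filter on low counts through KO cells alone. The targets that rose in KO cells with the smallest adjusted p included PLAU, the urokinase plasminogen activator, at 108 ± 1.87 CPM in T133A cells, 169.6 ± 0.536 CPM in KO cells and 45.8 ± 1.06 CPM in WT cells. They also included SDC4, a membrane proteoglycan, at 61.0 ± 9.14 CPM in T133A cells, 60.6 ± 0.715 CPM in KO cells and 22.7 ± 0.0514 CPM in WT cells. PTGS2, which encodes cyclooxygenase-2, had the smallest adjusted p of those that fell, at 1393 ± 109 CPM in T133A cells, 46.6 ± 10.2 CPM in KO cells and 548 ± 37.3 CPM in WT cells, a log2 fold change of -3.55 in KO cells relative to WT cells (adjusted p = 2.09e-15). The chemokine genes CXCL1, CXCL2 and CXCL3 had the next smallest adjusted p among the genes that fell, and they were higher in T133A than in KO cells by log2 fold changes of 6.24, 5.54 and 6.94 (adjusted p = 4.55e-20, 7.68e-18 and 7.01e-19). Their coding sequences are close to each other, so the authors' counting may split their reads.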

How the data were processed

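RNA-seq gene tables of 6 A549 libraries (T133A, KO and WT, 2 each) were used. Each table holds whole-number read counts per gene and FPKM values, as deposited by the authors. HISAT2 2.0.5, featureCounts 1.5.0 and the build GRCh38 are named in the submitters' processing notes. Whether counting used strand, and from which annotation release, is not given in the sources used here. Overlapping genes may therefore share counts. The FPKM values deposited by the authors correspond to library sizes between 0.967 and 1.03 times the summed counts and were not used further. In the tables, 27 gene names that had become dates were restored from the gene identifiers.

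Counts were analysed with edgeR 4.0.16 in R 4.3.3 (TMM scaling, filterByExpr, robust quasi-likelihood fit over the 6 libraries, whose sole term was group), two-sided, with Benjamini-Hochberg adjustment over 16340 genes and a threshold of 0.05. The biological coefficient of variation was 8.96%. Standard errors come from each log2 fold change divided by the square root of F, and intervals are the 95% range around it under a normal approximation. A fold against a group at 0 counts is a lower bound at 3 counts per library; it covers counting error only. Alternatives were DESeq2 1.42.0, limma-voom (limma 3.58.1), RLE factors, scaling by library size, no filter, a mean of at least 5 CPM, a fit of the compared groups alone, a block for replicate number, a GC content and length correction (loess, span 0.5), a minimum log2 fold change of 1, and each library left out, where the lone library of a group is assumed to vary like the others. The fit was tested on simulated counts. Promoter windows are from RefSeq (GRCh38.p14); 99.923% of the gene identifiers had the same position in GENCODE 29. Tables and figures were made in Python 3.11.15 (pandas 2.3.3, numpy 2.4.6, matplotlib 3.10.9).

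The members and all gene lists were chosen with earlier results of these data known. Members with a log2 fold change of 0.58 or more in either direction and an adjusted p under 0.05 in at least 1 comparison, 28 genes, are given in full, except that LTB has no p-value. Of the other lists, named genes come from the 4 called genes per direction and comparison with the smallest adjusted p. Genes of chromosome 8 have no sequence printed.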

Additional observations from a re-analysis of the deposited data

How the results depend on the processing

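The number of members called was 21 for T133A against WT, 25 for KO against WT and 26 for T133A against KO. Without LTB it was 20 for T133A against WT, and 17 higher and 8 lower for T133A against KO. The ranges that follow count LTB wherever it was tested. Over the alternative normalizations, tests, filters and corrections it was 19 to 23, 24 to 30 and 24 to 28, and with 1 library left out 18 to 23, 22 to 31 and 24 to 26. No member was called lower in T133A than in WT cells under any of these. With a minimum absolute log2 fold change of 1 the counts were 15, 10 and 12 (14, 10 and 11 without LTB). Over all 16340 genes tested the counts at that minimum were 431, 2490 and 2097. Of 1172 alternative values of 72 called member values, 1134 kept direction and call, 36 lost the call and 2 reversed. LTB, which passed the filter through T133A cells alone, is counted among those kept, with 14 alternatives against WT and 16 against KO cells. Those LTB values say nothing about how stable the other calls are. Both reversals were of CHUK in KO against WT cells. It was 0.093 with the GC content and length correction and 0.092 with that correction and the replicate block. The cause was not tested. The count of all genes called for T133A against WT was 1560, was 2544 with that correction, and ran from 763 (without WT replicate 1) to 2579 (without T133A replicate 2) with 1 library left out, with 840 without WT replicate 2. HOXB9 between T133A and WT cells was -0.047 without T133A replicate 1 (adjusted p = 0.882) and 0.33 without T133A replicate 2 (adjusted p = 0.0202).

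Replicate numbers are shared by the groups, but the labels do not say that they pair the samples, and deviations of same-numbered libraries correlated by -0.05, 0.02 and -0.12 over 16340 genes. With the replicate block, 20, 24 and 24 members were called, and 4 calls were lost (TRAF2 in T133A against WT, CHUK in KO against WT, TRAF3 and NFKB1 in T133A against KO); with block and GC correction, 22, 28 and 28. A crossed pairing of T133A with KO libraries, chosen after seeing the data, called 27. At 16299059 to 18745432 counts per library TNF was not testable. DESeq2 gave no adjusted p for LTB in T133A against WT.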
